A study of Mus musculus with 24 samples.

Results

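The livers of male B6C3F1 mice that had received only corn oil were compared between 8 h and 2 h, as a measure of how the liver transcriptome moved over these hours when no test compound was given. The comparison used 6 of the 24 arrays of the series, the 3 labelled corn oil at 8 h and the 3 labelled corn oil at 2 h, and covered 18194 genes, 1 probe set standing for each gene, namely that of highest mean on the 24 arrays. The series holds 8 groups of 3 arrays, corn oil or diethylhexylphthalate (DEHP, a plasticiser and peroxisome proliferator) at 2, 8, 24 and 72 h. Corn oil is the vehicle in which DEHP was given, and both were dosed by oral gavage at 10 ml/kg every 24 h for 3 days, DEHP at 1150 mg/kg/day and the vehicle at 0 mg/kg of DEHP. All groups share the strain, the sex, the gavage and the free access to RM1 diet and water, and the mice were 7 to 10 weeks old on arrival. The sources used here do not give the clock time of dosing or killing or any withdrawal of food, so hours after gavage, hours of the day and hours since the last meal cannot be told apart in this comparison. The design names 6 mice without relating them to the 3 arrays of a group, and nothing states that the arrays came from separate animals. The p-values rest on the spread between arrays within a group, pooled over all 8 groups of the series and not taken from these 6 arrays alone. That spread may in part be technical.

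The mammalian clock is a loop in which the activators BMAL1 (Arntl) and CLOCK switch on the Period, Cryptochrome and Rev-erb genes, whose products then repress the activators. In liver the loop drives output factors of the PAR bZIP family (Dbp, Tef and Hlf) and, through them and through feeding, genes of lipid, bile acid, sugar and drug metabolism. Feeding raises insulin and the sterol-regulated factors of fatty acid and cholesterol synthesis, whereas fasting raises PPARA targets of fatty acid oxidation and genes of glucose production.

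The 6 arrays did not all look alike before any gene was compared, and the array at 8 h numbered replicate 2 stood apart from the rest. Its 3' Actb probe set exceeded the 5' one by 1.46 on the log2 scale, against 0.53, 0.53 and 0.58 at 2 h and 0.82 and 0.59 in the other 8 h arrays, a gap that widens when RNA is degraded. Its 18S ribosomal RNA probe set read 11.7 against 6.89 to 8.49 on the other 5. The mean of 8 endothelial markers was 7.36 on this array and 8.06 to 8.35 on the others, and the mean of 8 macrophage markers was 8.04 against 8.60 to 8.90. Markers of hepatocytes, with the defining gene Alb at 14.36 to 14.50, differed little between the arrays, at a mean of 13.64 to 13.73 at 2 h and 13.59 to 13.67 at 8 h. Stellate cell markers averaged 8.25 to 8.40 at 2 h and 7.81, 7.94 and 8.36 at 8 h. Markers of the exocrine pancreas, a tissue that lies against the liver, averaged 8.70, 9.46 and 7.40 at 2 h and 7.46 to 8.04 at 8 h. No marker of these or of 5 further cell types (bile duct, lymphocyte, neutrophil, red blood cell and adipocyte) passed limma's test between 8 h and 2 h at an adjusted p of 0.05, while 4 of 8 endothelial and 3 of 8 stellate markers were lower at an unadjusted p under 0.05. Over all 18194 genes, 2846 had an unadjusted p under 0.05 in either direction. In whole liver, fewer cells of a type and less RNA per cell cannot be told apart. On 8 h replicate 2, neither can be told apart from the state of its RNA. The title of 8 h replicate 3 carries the same RC number, 14, as that of an array of the DEHP group at 8 h. The labels do not say what RC stands for. The values of this pair of arrays differed with an SD of 0.295 and correlated at 0.989, so they are not copies. Arrays of 1 time correlated at 0.990 to 0.993 and arrays of different times at 0.986 to 0.991 over all genes tested.

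**Figure D1:**
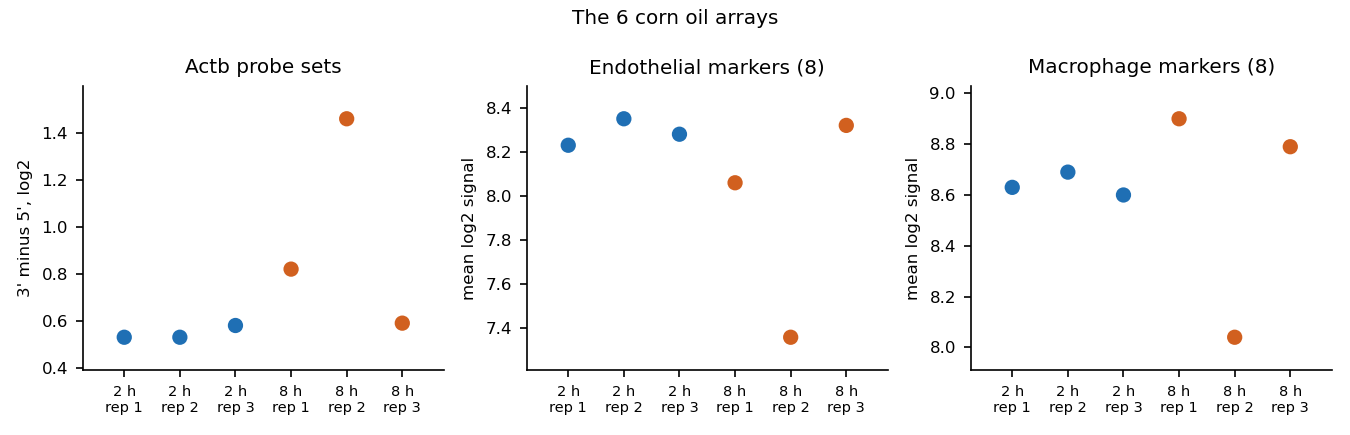
Measures of each of the 6 corn oil arrays, 2 h in blue and 8 h in orange: the log2 difference between the 3' and 5' Actb probe sets, and the mean log2 signal of 8 endothelial and 8 macrophage markers. The array labelled 8 h replicate 2 has the highest Actb difference (1.46) and the lowest endothelial (7.36) and macrophage (8.04) means, while the 3 arrays at 2 h lie close together.

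Between 2 h and 8 h, 738 of 18194 genes changed (4.06%), taking a limma adjusted p under 0.05 over all genes as the call. Of these, 539 were higher at 8 h (2.96% of the genes tested) and 199 lower (1.09%). At least 2-fold changes were seen in 39 of the higher and 35 of the lower genes. The median difference over all genes was 0.01 on the log2 scale. The 3 arrays at 8 h lay wholly above or below the 3 at 2 h in 731 of the 738 called genes, and in 3370 of all genes (18.5%). Among the calls, 73.0% were higher at 8 h, a share that came to 58.5% when the arrays were quantile normalized again. Without 8 h replicate 2, 380 genes were called, 361 of them among the 738, and without 2 h replicate 1 324 were called. With the Actb difference as a covariate 192 were called, 183 of them among the 738.

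**Figure D2:**
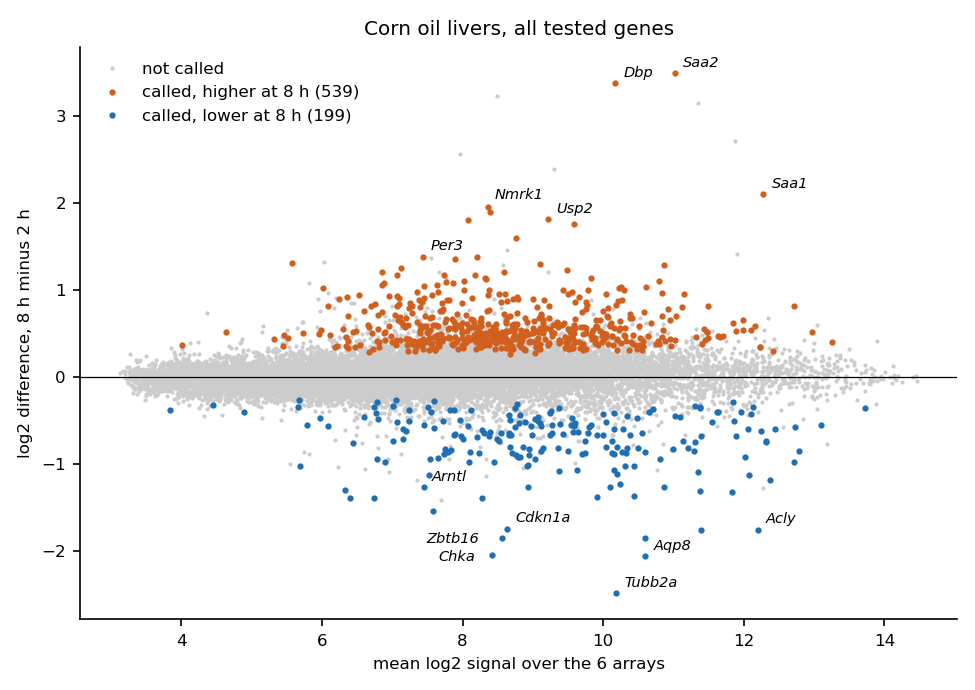
The log2 difference between corn oil livers at 8 h and 2 h against the mean log2 signal over the 6 arrays, 1 point per gene for 18194 genes, with the 539 genes called higher in orange and the 199 called lower in blue. Dbp (3.37) and Saa2 (3.49) are the largest called rises and Tubb2a (-2.48) the largest called fall.

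Of the activator arm of the clock, Arntl and Clock fell and the other 3 measured members did not pass. Arntl, which encodes BMAL1, had log2 signals of 8.02, 8.28 and 7.95 at 2 h and of 6.79, 6.98 and 6.68 at 8 h. The highest 8 h array lay below the lowest 2 h array. The difference was -1.27 (SE 0.20, limma adjusted p = 0.000596), or 2.4-fold lower, while another Arntl probe set differed by -0.04. Clock, the partner of BMAL1, went from 8.03, 8.23 and 8.10 to 7.15, 7.27 and 7.15, again without overlap, a difference of -0.93 (SE 0.15, adjusted p = 0.000763). Both calls held in each of the 6 fits that left out 1 array and with the Actb covariate. Npas2, a paralogue of Clock, was dim, with means of 5.39 ± 0.15 and 4.91 ± 0.12 (SD, n = 3), and its difference of -0.48 did not pass (adjusted p = 0.398). Rora, a nuclear receptor that drives Arntl, differed by -0.31 and Rorb by -0.05, neither of which passed. In all, 0 of 5 measured activators rose and 2 fell, with a median of -0.48. Of all genes, 2.96% were called higher and 1.09% lower.

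The repressor arm moved in both directions, with 5 of 11 members higher, 2 lower and a median of 0.34. The share called was 63.6%, against 4.06% of all genes. Per3, a Period gene, read 6.58, 6.61 and 7.03 at 2 h and 8.03, 7.90 and 8.43 at 8 h. That is a rise of 1.38 (SE 0.18, adjusted p = 0.000124) with every 8 h array above every 2 h array. The 6 probe sets of Per3 differed by 0.07 to 1.38. Ciart, a repressor of the BMAL1 and CLOCK pair, went from 6.86, 7.03 and 7.44 to 7.91, 7.83 and 7.70, a rise of 0.70 (SE 0.13, adjusted p = 0.00324). The other Period genes moved less. Per2 rose by 0.40 (SE 0.10, adjusted p = 0.0231), from 7.10, 7.31 and 7.39 to 7.76, 7.62 and 7.63. Per1 read 8.20, 8.26 and 8.41 and then 8.57, 8.63 and 8.88, groups that did not overlap, but its difference of 0.40 did not pass (adjusted p = 0.185). Of the Cryptochromes, Cry2 rose by 0.34 (SE 0.08, adjusted p = 0.0159), from 7.90, 7.70 and 7.88 to 8.25, 8.11 and 8.16. Cry1, at 5.34, 5.47 and 5.36 and then 5.11, 5.24 and 5.01, was among the dim genes and differed by -0.27 (adjusted p = 0.683).

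The Rev-erb pair, nuclear receptors that repress Arntl, split. Nr1d1 (Rev-erb alpha) read 9.47, 9.23 and 9.25 at 2 h and 8.67, 8.67 and 8.60 at 8 h, a fall of 0.67 on the log2 scale (SE 0.16, adjusted p = 0.0206). Nr1d2 (Rev-erb beta) read 10.00, 9.90 and 10.14 and then 10.63, 10.64 and 10.93, a rise of 0.72 (SE 0.20, adjusted p = 0.0379). The arrays of the 2 times did not overlap for either gene. The call of Nr1d2 was lost in each of the 6 fits without 1 array, and another of its probe sets differed by -0.17. Nfil3, a repressor that competes with the PAR bZIP factors, fell from 9.48, 9.85 and 9.37 to 8.81, 8.26 and 7.84, a difference of -1.26 (SE 0.30, adjusted p = 0.016). Bhlhe40 and Bhlhe41, repressors at E-boxes, differed by 0.31 and 0.09 with overlapping arrays and did not pass. Of the 12 measured modifiers of clock proteins, the ubiquitin protease Usp2 alone passed (8.33%, against 4.06% of all genes). Usp2 went from 8.30, 8.16 and 8.48 to 10.18, 10.51 and 9.69 (rise of 1.81, limma adjusted p = 8.76e-06).

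Of the 9 called activators and repressors, Arntl, Clock, Per3 and Ciart kept their calls in each of the 6 fits without 1 array. Cry2 lost it without 2 h replicate 2 or 8 h replicate 1, Per2 without 2 h replicate 1, 8 h replicate 1 or 8 h replicate 2, and Nr1d1 without 2 h replicate 1, 8 h replicate 2 or 8 h replicate 3. Nfil3 lost it without 2 h replicate 1 or 2 or without 8 h replicate 2 or 3. With 8 h replicate 2 left out, 2 activators fell, and 3 repressors rose and 0 fell by limma's adjusted p. With the Actb covariate 2 activators fell, and 1 repressor, Per3, rose and 0 fell, with adjusted p of 0.0646 for Ciart, 0.0898 for Cry2, 0.116 for Nfil3 and 0.126 for Nr1d1.

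A minority of the clock promoters held the DNA elements known from this loop, and those of 5 called genes are printed from RefSeq (GRCm38.p6) because these genes moved in opposite directions. The RORE core, TAGGTCA, is bound by ROR activators and Rev-erb repressors. The D-box, TTATGTAA or TTACGTAA, is bound by the PAR bZIP factors and by NFIL3, and the E-box, CACGTG, by BMAL1 and CLOCK. Windows from 250 bases before to 50 bases after an annotated start, 18110 in all, were searched on both strands for 14453 tested genes, and no match printed overlaps a match to another motif. Capitals mark the match, and each line reads 5' to 3' on the strand of the gene. Arntl (chr7:113207530-113207559, plus strand) has its match after the start, and Nfil3 (chr13:52981040-52981139, minus strand) has it 12 bases before the start in the reverse orientation. Per3 (chr4:151044791-151044890, minus strand) has a pair of D-boxes, Ciart (chr3:95882247-95882364, minus strand) 3 E-boxes, and Tef 1 E-box before each of 2 starts (chr15:81802526-81802625 and chr15:81811256-81811355, plus strand).
Arntl, RORE core: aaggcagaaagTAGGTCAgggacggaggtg
Nfil3, RORE core: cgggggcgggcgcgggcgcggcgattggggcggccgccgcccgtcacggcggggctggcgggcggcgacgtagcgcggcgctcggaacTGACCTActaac
Per3, D-box: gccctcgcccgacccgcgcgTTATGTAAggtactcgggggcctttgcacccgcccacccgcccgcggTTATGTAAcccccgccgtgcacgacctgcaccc
Ciart, E-box: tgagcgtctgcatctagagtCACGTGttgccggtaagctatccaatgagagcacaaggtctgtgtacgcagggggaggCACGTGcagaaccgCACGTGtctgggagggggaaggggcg
Tef, first start, E-box: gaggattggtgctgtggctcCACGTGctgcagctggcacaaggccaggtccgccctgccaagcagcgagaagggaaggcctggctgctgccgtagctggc
Tef, second start, E-box: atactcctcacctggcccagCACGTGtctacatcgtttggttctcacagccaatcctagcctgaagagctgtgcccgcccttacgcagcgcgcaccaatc

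Both clock genes with a RORE core in the window, Arntl and Nfil3, fell, while Per3 with its D-boxes and Ciart and Tef with their E-boxes rose. The other clock genes with an E-box did not pass (Per1 0.40, Cipc 0.38, Bhlhe41 0.09 and Cry1 -0.27), nor did Timeless (-0.06), the other with a D-box. The RORE core was present for 2.57% of all tested genes with a window, for 11 of 161 genes called lower (6.83%) and for 4 of 435 called higher (0.92%). The E-box was present for 10.2% of all, for 15.5% of those called lower and 13.3% of those called higher, and for 6 of 27 clock genes and PAR bZIP factors (22.2%: Bhlhe41, Ciart, Cipc, Cry1, Per1 and Tef). The D-box was present for 1.02% of all and for 2 of these 27, Per3 and Timeless. These are matches of letters in a short window and were not tested.

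The output factors of the clock rose together. Dbp had log2 signals of 8.34, 7.45 and 9.67 at 2 h and of 11.64, 12.08 and 11.86 at 8 h. The 3 arrays at 2 h were spread over more than 2 log2 units, yet all lay below the 8 h arrays, and the rise of 3.37 (SE 0.57, limma adjusted p = 0.00118) corresponds to 10.3-fold. Tef went from 10.17, 9.85 and 10.27 to 11.10, 11.07 and 11.20, a rise of 1.03 (SE 0.15, adjusted p = 0.000382) with no overlap, although another of its probe sets differed by -0.04. Hlf went from 8.70, 8.38 and 8.90 to 9.64, 9.35 and 9.42, a rise of 0.81 (SE 0.14, adjusted p = 0.00131). All 3 calls held in each fit without 1 array. Among the genes known to respond to these factors, Nr1i3, which encodes the drug-sensing receptor CAR, rose by 0.86 (adjusted p = 0.0045), from 9.07, 9.44 and 9.46 to 10.18, 9.92 and 10.42. Abcg5, a sterol exporter, rose by 0.70 (adjusted p = 0.0253), a call lost without 2 h replicate 1 or 2 or without 8 h replicate 1 or 3. Ddc, a decarboxylase of aromatic amino acids, moved the other way, from 10.85, 10.93 and 10.78 to 9.22, 9.59 and 10.06 (-1.23, SE 0.17, adjusted p = 0.00025). Another Ddc probe set showed no difference (-0.0). Alas1, the first enzyme of heme synthesis, read 11.42, 11.89 and 10.28 at 2 h and 12.11, 12.67 and 13.05 at 8 h. Its arrays did not overlap but were spread, and 1.41 (SE 0.42) did not pass (adjusted p = 0.0617). In this list 5 of 12 measured members rose, 1 fell, and the median was 0.65, with the same counts of 5 and 1 without 8 h replicate 2.

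The later corn oil groups put these values in a longer series, shown as a description. Arntl was at 8.27 ± 0.24 at 24 h and 8.22 ± 0.42 at 72 h (SD, n = 3), close to its 2 h mean of 8.08 ± 0.18 and above its 8 h mean of 6.82 ± 0.15. Dbp was at 7.79 ± 1.08 and 7.75 ± 1.11, below its 8 h mean of 11.86 ± 0.22. Nr1d1 was among the exceptions, with 8.72 ± 0.37 at 24 h and 8.25 ± 0.35 at 72 h. These lay nearer to its 8 h mean of 8.65 ± 0.04 than to its 2 h mean of 9.32 ± 0.13. Hlf, at 9.09 ± 0.32 at 24 h and 8.92 ± 0.14 at 72 h, lay between its 2 h mean (8.66) and 8 h mean (9.47). Per1 at 72 h (8.87 ± 0.22) was above its 8 h mean of 8.69 ± 0.16.

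**Figure D3:**
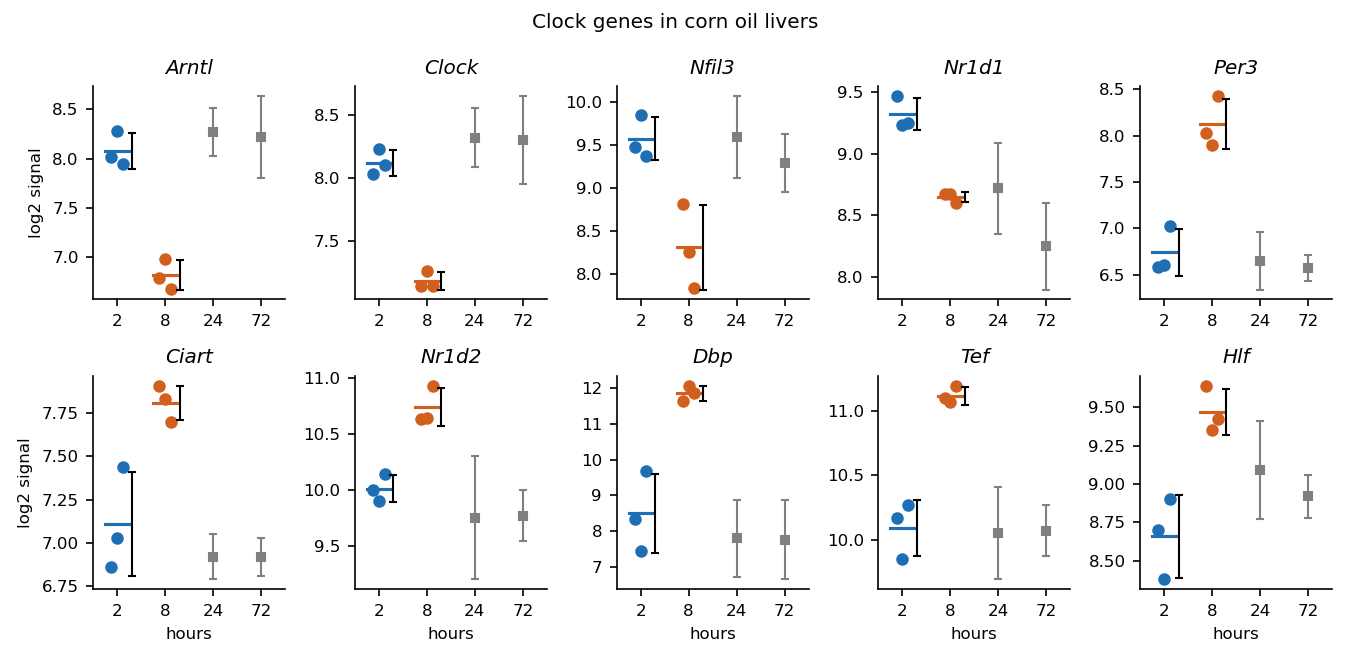
Log2 signals of 10 clock genes in corn oil livers by labelled hour. Coloured points are the single arrays at 2 h (blue) and 8 h (orange), short lines their means and black bars the SD, and grey squares with bars are the mean and SD of 3 arrays at 24 h and 72 h. Arntl, Clock and Nfil3 are low at 8 h alone, Per3, Ciart, Nr1d2, Dbp and Tef are high at 8 h, and Nr1d1 is highest at 2 h.

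Other genes known to cycle in mouse liver changed in both directions, 7 higher and 8 lower of 30 measured, with a median of -0.10. The beta-tubulin Tubb2a had the largest fall of all called genes. It went from 11.13, 11.73 and 11.39 to 8.95, 9.19 and 8.67, with no overlap, and differed by -2.48 (SE 0.23, limma adjusted p = 2.98e-06), or 5.58-fold. Of the 13 tubulins measured, 2 others fell with it (23.1% lower, against 1.09% of all genes). Tubb4b differed by -1.07 (adjusted p = 0.000587), though its probe sets ranged up to 0.08, and Tubb5 by -0.67 (adjusted p = 0.0104), a call lost without 2 h replicate 2 or 8 h replicate 2. Elovl3, a very long chain fatty acid elongase, fell from 12.34, 12.63 and 11.81 to 10.19, 11.21 and 10.12 (-1.75, SE 0.33, adjusted p = 0.00306). The 2 h and 8 h arrays of Elovl3 did not overlap. Cdkn1a, which encodes the cell cycle inhibitor p21, fell from 9.82, 9.56 and 9.14 to 7.61, 7.77 and 7.92 (-1.74, SE 0.21, adjusted p = 4.43e-05). Wee1, a kinase that holds back mitosis, rose from 7.35, 7.01 and 7.32 to 8.19, 8.20 and 8.55 (1.09, SE 0.17, adjusted p = 0.000591). Noct (nocturnin, a phosphatase of NADPH) rose by 1.30 (adjusted p = 0.0161), a call lost without 2 h replicate 1, 2 h replicate 3 or 8 h replicate 3. Nampt, the salvage enzyme of NAD synthesis, rose by 0.89 (adjusted p = 0.00443), and, outside the list, Nmrk1, a kinase that feeds nicotinamide riboside into NAD synthesis, went from 7.03, 7.48 and 7.66 to 9.12, 9.13 and 9.76 (1.95, SE 0.20, adjusted p = 8.76e-06). Gys2, the liver glycogen synthase, rose from 10.13, 10.22 and 10.38 to 10.91, 11.57 and 11.57 (1.11, SE 0.16, limma adjusted p = 0.000276). It was the only call among 15 measured glycogen genes (6.67%, against 4.06% of all genes). On leaving out 8 h replicate 2, 7 of the 30 rose and 6 fell.

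Of 24 measured genes of fatty acid and triglyceride synthesis, 8 fell and 0 rose. The median of the list was -0.54, 20 of 24 differences were below 0, and against this 1.09% of all genes were called lower. Acly, which makes cytosolic acetyl-CoA from citrate, had log2 signals of 13.23, 12.78 and 13.21 at 2 h and of 11.16, 10.98 and 11.82 at 8 h. Its difference of -1.75 (SE 0.34, limma adjusted p = 0.00366) corresponds to 3.37-fold lower, and another of its probe sets read 0.01. Acss2, an acetate-activating enzyme, fell from 12.04, 11.76 and 12.29 to 10.38, 10.78 and 11.01 (-1.30, SE 0.31, adjusted p = 0.0177). Acacb, the acetyl-CoA carboxylase of mitochondria, fell from 10.82, 10.42 and 11.03 to 9.30, 9.77 and 9.86 (-1.11, SE 0.28, adjusted p = 0.0236), while another of its probe sets differed by -0.07. Me1, the malic enzyme that supplies NADPH, fell from 12.97, 12.82 and 13.12 to 11.37, 11.82 and 12.16 (-1.19, SE 0.28, adjusted p = 0.0167). In each of these genes every 8 h array lay below every 2 h array. Pnpla3, a lipid droplet protein, differed by -1.39, the acyltransferase Gpam by -0.92, the phosphatidate phosphatase Lpin2 by -0.74 and the elongase Elovl5 by -0.56, all called. Fasn, the fatty acid synthase, read 12.87, 12.76 and 13.10 and then 11.53, 11.46 and 11.91, without overlap, but its difference of -1.28 (SE 0.39) did not pass (adjusted p = 0.0695). The SE is pooled over all groups. The SD of Fasn was 0.17 at 2 h and 0.24 at 8 h, but 0.68 in corn oil at 24 h and 0.86 in DEHP at 2 h. Srebf1, the insulin-responsive regulator of this group, differed by 0.60 (adjusted p = 0.317).

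Acly and Lpin2 kept their calls whichever of the 6 arrays was left out. Acss2, Acacb, Me1 and Pnpla3 lost their calls without 2 h replicate 1, 2 h replicate 3, 8 h replicate 1 or 8 h replicate 2. Elovl5 lost it without 2 h replicate 1, 2 h replicate 3 or 8 h replicate 1, and Gpam in all fits but that without 2 h replicate 2. Without 8 h replicate 2, 3 of 24 fell and the median was -0.55, and with the Actb covariate 1 fell. Outside the list, Pnpla5, a lipid droplet lipase, fell from 8.49, 7.95 and 8.60 to 6.59, 6.94 and 6.90 (-1.53, adjusted p = 0.00259). Lpin1, a phosphatidate phosphatase and coactivator, fell from 12.49, 12.52 and 12.45 to 10.64, 11.14 and 11.74 (-1.32, adjusted p = 0.0145), a call lost without 2 h replicate 1, 8 h replicate 1 or 8 h replicate 2.

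In cholesterol synthesis and uptake 7 of 20 measured genes were lower, 0 higher and 18 differences below 0 (median -0.37). Of the 7, Insig2 is a regulator and not an enzyme of synthesis. Fdps, which makes farnesyl diphosphate, went from 13.27, 13.05 and 13.28 to 12.35, 11.91 and 12.42 (-0.98, SE 0.16, limma adjusted p = 0.000949), while another of its probe sets differed by -0.06. Insig2, which retains the sterol sensor in the endoplasmic reticulum, went from 11.76, 12.14 and 11.79 to 10.57, 10.97 and 10.86 (-1.09, SE 0.18, adjusted p = 0.00107). Dhcr7, the last step to cholesterol, went from 11.41, 11.48 and 11.61 to 10.80, 10.60 and 10.91 (-0.73, SE 0.15, adjusted p = 0.005). These 3 genes did not overlap between the times and kept their calls in each fit without 1 array. The mevalonate pathway enzymes Mvd (-0.92) and Pmvk (-0.88), the cyclase Lss (-0.80) and the desaturase Sc5d (-0.74) were also called. Lss was called in 1 of the 6 fits without 1 array (without 2 h replicate 2), and Mvd in 1 (without 8 h replicate 1). Pmvk lost its call without 2 h replicate 1 or 3, and Sc5d without either of these or 8 h replicate 1 or 2. Hmgcs1 and Sqle, early and middle steps, differed by -0.48 and -0.66 and did not pass. Without 8 h replicate 2, 4 of 20 fell, with a median of -0.26, and with the Actb covariate 1 fell.

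Bile acid genes changed singly, 3 higher and 1 lower of 22 (18.2% called, against 4.06% of all genes), with a median of -0.02. Cyp7a1, the hydroxylase that sets the rate of bile acid production, read 9.69, 10.30 and 10.68 at 2 h and 11.80, 10.96 and 11.78 at 8 h. Its rise of 1.29 (SE 0.29, limma adjusted p = 0.013) was lost as a call without 2 h replicate 1, 8 h replicate 1 or 8 h replicate 3, and was 1.57 without 8 h replicate 2. Nr1h4, the bile acid receptor FXR, rose from 9.58, 9.62 and 9.69 to 10.41, 10.19 and 10.24 (0.65, SE 0.10, adjusted p = 0.000659). Amacr, a racemase of side-chain oxidation, rose by 0.55 (adjusted p = 0.00324). Abcb11, the bile salt export pump, fell by 0.43 on the log2 scale (adjusted p = 0.0177), a call kept without 2 h replicate 1 and without 8 h replicate 2 only. Aqp8, a water channel of the bile canaliculus and mitochondria, had the next largest fall after Tubb2a among the named genes. It went from 11.76, 11.38 and 11.74 to 8.98, 9.84 and 9.89 (-2.06, SE 0.28, adjusted p = 0.000171), and every fit without 1 array kept it.

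PPARA and fasting genes did not move as 1 group, with 5 of 22 higher, 1 lower and a median of 0.24. In all 27.3% were called, against 4.06% of all genes. Cyp4a14, a fatty acid omega-hydroxylase, read 7.68, 6.75 and 7.87 at 2 h and 9.81, 10.08 and 8.11 at 8 h. The third 8 h array stood only just above the 2 h arrays, and the rise of 1.90 (SE 0.40, limma adjusted p = 0.0066) became 1.52 (adjusted p = 0.0598) without 8 h replicate 2. Vnn1, a pantetheinase, rose more evenly, from 7.88, 7.95 and 8.06 to 9.60, 9.70 and 9.38 (1.59, SE 0.30, adjusted p = 0.00287). Slc25a20, the carnitine carrier, rose by 0.80 (adjusted p = 0.00252), Cpt1a, which admits fatty acids to mitochondria, by 0.54 (adjusted p = 0.0111) and Creb3l3, a fasting transcription factor, by 0.53 (adjusted p = 0.00157). Cpt1a lost its call without 2 h replicate 1 or 8 h replicate 3. Pdk4, the kinase that shuts off pyruvate dehydrogenase in fasting, went the other way, from 7.41, 7.13 and 6.75 to 6.47, 5.12 and 5.54 (-1.38, SE 0.27, adjusted p = 0.00435). Fgf21, a fasting hormone, differed by 0.14 and Ppara itself by 0.19, neither called. Acot3, an acyl-CoA thioesterase among the largest rises, read 7.17, 7.27 and 7.21 and then 7.72, 8.16 and 9.84. Its difference of 1.36 (adjusted p = 0.0275) was 0.73 and not called without 8 h replicate 3, and the call was lost too without any 1 of the 2 h arrays. The fit without 8 h replicate 2 had 4 members of the list higher and 1 lower.

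The list of gluconeogenesis and fasting factors was mixed, with 1 of 25 higher, 4 lower and a median of -0.01. Its calls were Igfbp1, Got1, Tat, Insr and Lpin1, the last described above. Pck1 stayed between 12.70 and 12.86 on all 6 arrays, and G6pc differed by 0.03 with overlapping arrays. Fbp1, another enzyme of glucose production, differed by 0.08, and none of them was called. The 3 probe sets of Pck1 differed by -0.51 to 0.35, and the values given are those of the brightest. Igfbp1, an insulin-repressed binding protein of IGF, had 12.02, 12.11 and 10.40 at 2 h and 9.0, 9.74 and 10.27 at 8 h. The lowest 2 h array lay just above the highest 8 h array, and the difference of -1.84 (SE 0.51, limma adjusted p = 0.0409) was called in only 2 of the 6 fits without 1 array, those without 2 h replicate 3 and without 8 h replicate 3. Got1, the cytosolic aspartate aminotransferase, fell from 12.79, 12.43 and 12.71 to 11.40, 11.19 and 11.95 (-1.13, SE 0.17, adjusted p = 0.000508). Tat, the tyrosine aminotransferase and a glucocorticoid target, fell from 13.27, 13.11 and 13.23 to 12.64, 12.09 and 12.34 (-0.85, SE 0.10, adjusted p = 4.59e-05). Insr, the insulin receptor, rose by 0.50 (adjusted p = 0.0453), a call lost without 2 h replicate 1 or 3 or without 8 h replicate 2 or 3. Another Insr probe set differed by -0.02. In the amino acid list Bhmt joined Got1 and Tat as lower (-0.35), making 3 of 29 (10.3%, against 1.09% of all genes lower). Bhmt lost its call without 2 h replicate 1, 2 h replicate 3 or 8 h replicate 1. Limma called no glycolysis gene of 12, of which 2 were lower at an unadjusted p under 0.05. Beside this, 2846 of all 18194 genes had an unadjusted p under 0.05 in either direction. The list of gluconeogenesis and fasting factors had 0 higher and 2 lower of 25 without 8 h replicate 2.

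Some chaperones of both compartments were lower at 8 h, and most members of either list did not pass. In the endoplasmic reticulum, 6 of 26 folding genes fell, 0 rose and 23 differences were below 0, with a median of -0.23. That is 23.1% called lower, against 1.09% of all genes. Manf, a secreted stress factor, went from 11.41, 11.61 and 11.50 to 10.59, 9.88 and 10.25 (-1.27, SE 0.20, limma adjusted p = 0.000556). Hspa5, the chaperone BiP, went from 12.54, 12.79 and 12.72 to 12.08, 11.79 and 11.94 (-0.75, SE 0.12, adjusted p = 0.000556). Both kept their calls in every fit without 1 array. Syvn1, a ubiquitin ligase of misfolded proteins, differed by -1.02, the secreted protein Creld2 by -1.07, the co-chaperone Dnajb9 by -0.94 and Herpud1, a partner of Syvn1, by -0.62. Creld2 was called in 1 of the 6 fits without 1 array (without 2 h replicate 1). Syvn1 lost its call without 2 h replicate 2 or 8 h replicate 2, Herpud1 without 2 h replicate 3 or 8 h replicate 2, and Dnajb9 without 8 h replicate 2. Without that last array 2 of 26 fell, with the same median of -0.23.

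In the cytosol, 6 of 24 measured heat shock chaperones fell and 0 rose (median -0.22). Hspa8, the constitutive HSP70, went from 12.69, 12.69 and 12.85 to 12.22, 12 and 12.24 (-0.59, SE 0.10, limma adjusted p = 0.0012), with another probe set at 0.10. Stip1, which links HSP70 to HSP90, went from 9.45, 9.68 and 9.61 to 8.90, 8.91 and 8.93 (-0.67, SE 0.10, adjusted p = 0.000462). Hspa4l, an exchange factor of HSP70, went from 8.29, 8.61 and 8.17 to 7.53, 7.64 and 7.78 (-0.71, SE 0.12, adjusted p = 0.00106). These 3 did not overlap and kept their calls without any 1 array. Hsph1, another exchange factor, differed by -0.88, Chordc1, an HSP90 partner, by -0.55 and Hsp90aa1, the inducible HSP90, by -0.51. Hsph1 lost its call without 2 h replicate 2 or 8 h replicate 2, Hsp90aa1 without 2 h replicate 2, 2 h replicate 3 or 8 h replicate 1, and Chordc1 without 2 h replicate 2, 2 h replicate 3, 8 h replicate 1 or 8 h replicate 2. The inducible HSP70 gene Hspa1b read 10.09, 11.62 and 10.71 and then 10.34, 9.77 and 9.97, and its overlapping arrays did not pass (-0.78, adjusted p = 0.296). Without 8 h replicate 2, 4 of 24 fell, and with the Actb covariate 3 fell. The heat shock element core GAANNTTC was present in the promoter windows of 11 of 21 genes of this list (52.4%), against 7.6% of all tested genes with a window. Of these 11 genes, Chordc1 and Hsph1 were called and the rest were not. Over all genes with a window, the element was present for 8.07% of those called lower and 6.9% of those called higher. Hsph1 is shown as an example of a called member with this element, which lies after the start (chr5:149636277-149636306, minus strand).
Hsph1, heat shock element core: tgcagattctgGAAAGTTCtcctcagtagg

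Cirbp, an RNA-binding protein induced by mild cold, moved opposite to the chaperones. It read 6.96, 7.06 and 7.00 at 2 h and 7.96, 7.91 and 7.87 at 8 h, a rise of 0.91 (SE 0.18, limma adjusted p = 0.00366) in tightly grouped arrays, kept in every fit without 1 array. With the Actb covariate the rise was 0.85 and the call was lost (limma adjusted p = 0.0725). In DEHP livers Cirbp changed by 0.51, which did not pass (limma adjusted p = 0.139). It was the 1 gene called in corn oil of 3 measured cold-inducible genes.

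**Figure D4:**
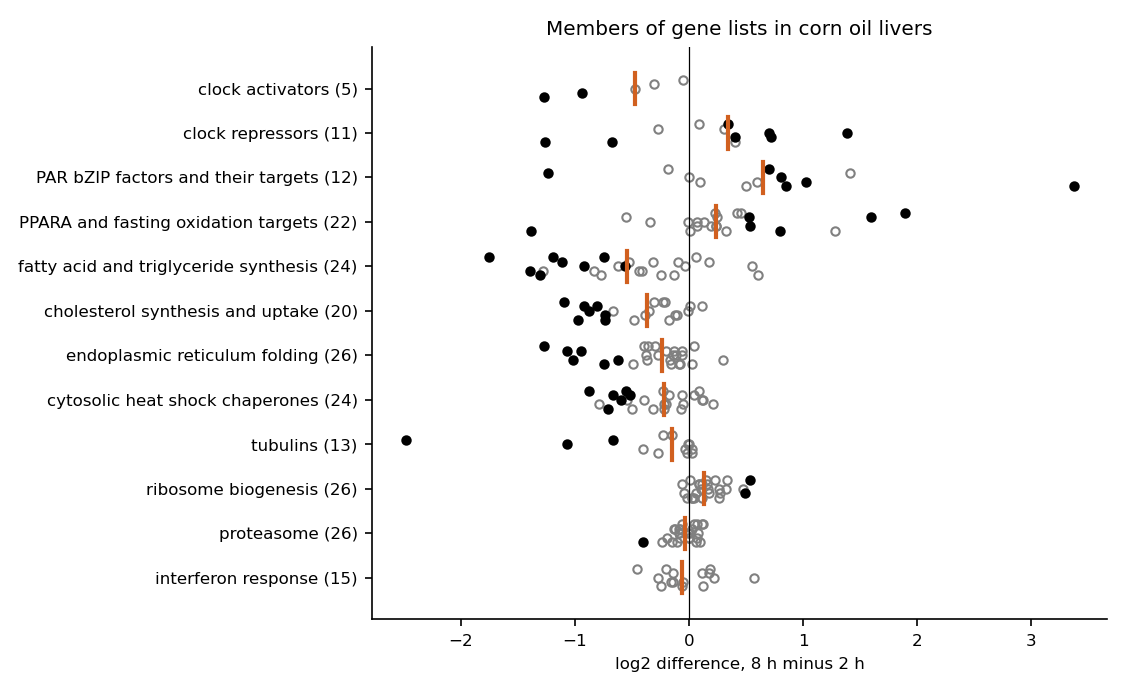
Each point is 1 measured gene of a list, placed at its log2 difference between 8 h and 2 h in corn oil livers, with the number measured in brackets. Filled points were called (adjusted p under 0.05), open points were not, and the orange line is the median. Fatty acid synthesis (median -0.54), cholesterol synthesis (-0.37) and both chaperone lists lie mostly left of 0 with no called gene to the right, the PAR bZIP list (0.65) lies mostly right, and the proteasome and interferon lists centre near 0.

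Saa2, a serum amyloid gene for a secreted acute phase protein of hepatocytes, had the largest called rise, and it and Saa1 varied widely between arrays. Saa2 read 9.22, 8.50 and 10.11 at 2 h and 14.25, 11.92 and 12.13 at 8 h. Saa1 read 10.99, 10.45 and 12.25 and then 13.71, 13.04 and 13.24. The groups did not overlap for either gene, and the first 8 h array was the highest for both. The rises of 3.49 (SE 0.95, limma adjusted p = 0.039) for Saa2 and 2.10 (SE 0.59, adjusted p = 0.0468) for Saa1 were just inside the threshold. Saa2 was called in 0 and Saa1 in 1 of the 6 fits without 1 array (without 2 h replicate 3). The probes of these near-identical genes may share transcripts, so the 2 values are not independent. Of 25 acute phase genes measured, these were the 2 called (8.0%, against 4.06% of all genes). In the list 21 differences were above 0, and the median was 0.31. The mean deviation of the list from each gene's mean over the 24 arrays was 1.01 on 8 h replicate 1 and 0.09 and 0.16 on the other 8 h arrays.

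Several of the most changed genes belong to no single pathway. Chka, choline kinase, had the smallest adjusted p of the named genes. It went from 9.36, 9.68 and 9.29 to 7.33, 7.57 and 7.30, a difference of -2.04 (SE 0.15, limma adjusted p = 7.48e-08), or 4.12-fold lower. Zbtb16, a transcription factor induced by glucocorticoids, went from 9.45, 9.36 and 9.65 to 7.61, 8.09 and 7.20 (-1.85, SE 0.26, adjusted p = 0.00026). Clpx, the unfoldase of a mitochondrial protease, differed by -1.38 and Coq8a, a protein of coenzyme Q synthesis, by -1.36 (adjusted p = 8.76e-06). Rnf152, a ubiquitin ligase of lysosomes, rose by 1.38 (adjusted p = 6.15e-05), from 7.38, 7.69 and 7.46 to 8.28, 9.09 and 9.31. Nrep rose by 1.76 (adjusted p = 0.000276) and Gdap10 by 1.81 (adjusted p = 0.00275). All 7 kept their calls in each fit without 1 array. Gadd45a, a stress gene of DNA repair and the 1 called of 23 immediate-early genes (4.35%, near the 4.06% of all genes), rose by 1.30 (adjusted p = 0.016), from dim signals of 4.69, 4.57 and 5.51 to 6.33, 6.33 and 6.00. It was called without 2 h replicate 3 and without 8 h replicate 3 but in none of the other 4 such fits.

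Smaller groups held few calls, and of all genes 2.96% were called higher and 1.09% lower. Serpina6, the corticosteroid-binding globulin, rose by 0.70 (limma adjusted p = 0.0416), and with Zbtb16 and Tat lower it made 3 calls of 19 glucocorticoid targets. Its call was kept without 8 h replicate 2 but in no other such fit. Slc40a1, the iron exporter ferroportin, rose by 0.70 (adjusted p = 0.00287), and Tfr2, a sensor of transferrin, by 0.47 (adjusted p = 0.0303), 2 of 16 iron and heme genes. Bnip3 (0.66, adjusted p = 0.00491), a receptor of mitophagy, Map1lc3a (0.52, adjusted p = 0.0153), a coat protein of autophagosomes, and Mtor (0.39, adjusted p = 0.0495) rose, whereas Sqstm1, an autophagy cargo adaptor, fell (-0.40, adjusted p = 0.0161), 4 of 25. Among 25 genes of G1/S and replication, Cdt1 (0.40) and Cdk2 (0.35) were higher and Cdkn1a and Mcm3 (-0.35) lower, and Mcm3 was called in no fit without 1 array. Other probe sets of Cdt1, Cdk2 and Mcm3 reached the other sign (-0.08, -0.06 and 0.08). In ribosome biogenesis Gnl3 (0.53) and Dkc1 (0.50), both nucleolar, were the 2 higher of 26 (7.69%), with 23 differences above 0. Of 26 proteasome subunits Psmd14 was lower (-0.40, adjusted p = 0.0133), a share of 3.85% against 4.06% of all genes called. Tfr2, Map1lc3a, Mtor, Sqstm1, Cdt1, Cdk2 and Gnl3 each lost the call without 2 h replicate 1 and in at least 2 further such fits. Psmd14 lost it without 2 h replicate 2 and Dkc1 without 2 h replicate 1. Limma called 0 of 22 ATF4 targets and 0 of 15 interferon genes, and in each list 1 gene was higher and 1 lower at an unadjusted p under 0.05, as were 2846 of all 18194 genes in either direction.

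The DEHP groups gave a second reading of the same interval, since the size of their change from 2 h to 8 h uses none of the corn oil arrays. Both tests use the same pooled estimate of spread for each gene, so the calls of the DEHP and corn oil changes are not independent. In DEHP livers 728 genes were called (4.0%), 372 higher and 356 lower. Of the corn oil calls, 29.8% were also called there, and of the DEHP calls 30.2% were called in corn oil. The genes called in both numbered 215 with the same sign and 5 with opposite signs. Of the 738 corn oil calls, 597 had the same sign in DEHP, whether called there or not. Across the 738 genes the changes correlated at 0.75, and across all 18194 at 0.41, points that share libraries and are not independent. Several of the genes described above moved the same way in both. Arntl changed by -1.81 in DEHP and -1.27 in corn oil, Per3 by 1.76 and 1.38, Dbp by 5.03 and 3.37, and Tubb2a by -2.28 and -2.48, each called in both.

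The difference between the changes was called for 76 genes (0.418%), 40 of them also called in corn oil. This difference contains the corn oil change and uses the same corn oil arrays. An overlap with the corn oil calls is therefore favoured in advance. At an unadjusted p under 0.05 it was found for 1833 of all 18194 genes. Of the genes with opposite calls, Hspa8 was -0.59 in corn oil and 0.45 in DEHP, Apol7a 0.74 and -0.68, Gpr155 0.62 and -0.57, Mfhas1 0.55 and -0.65, and Ccpg1os 0.34 and -0.34. The 24 heat shock chaperones had a median of -0.22 in corn oil with 6 lower and of 0.18 in DEHP with 4 higher, and the difference was called for 3 of them, with 17 at an unadjusted p under 0.05. In contrast 12 of 26 endoplasmic reticulum genes were lower in DEHP (median -0.52) and limma called the difference for 0 of them, with 6 at an unadjusted p under 0.05. Fatty acid synthesis had a median of 0.17 in DEHP with 0 called, against -0.54 with 8 lower in corn oil, and the difference was called for 2 of 24, Me1 and Lpin2, with 12 at an unadjusted p under 0.05. These changes did not all start from the same level. At 2 h the means in DEHP and corn oil were 11.75 and 13.07 for Acly, 10.58 and 12.03 for Acss2 and 12.02 and 12.97 for Me1. For Agpat2 they were alike, at 11.85 and 11.82. The gap at 2 h was not tested. Nr1d1, lower by 0.67 in corn oil, changed by 0.04 in DEHP, a difference of 0.71 that did not pass (adjusted p = 0.211). Saa2 changed by 0.05 in DEHP, where its means were 13.49 at 2 h and 13.54 at 8 h, against 9.28 and 12.77 in corn oil, and the difference of -3.43 (SE 1.35) did not pass (adjusted p = 0.346).

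**Figure D5:**
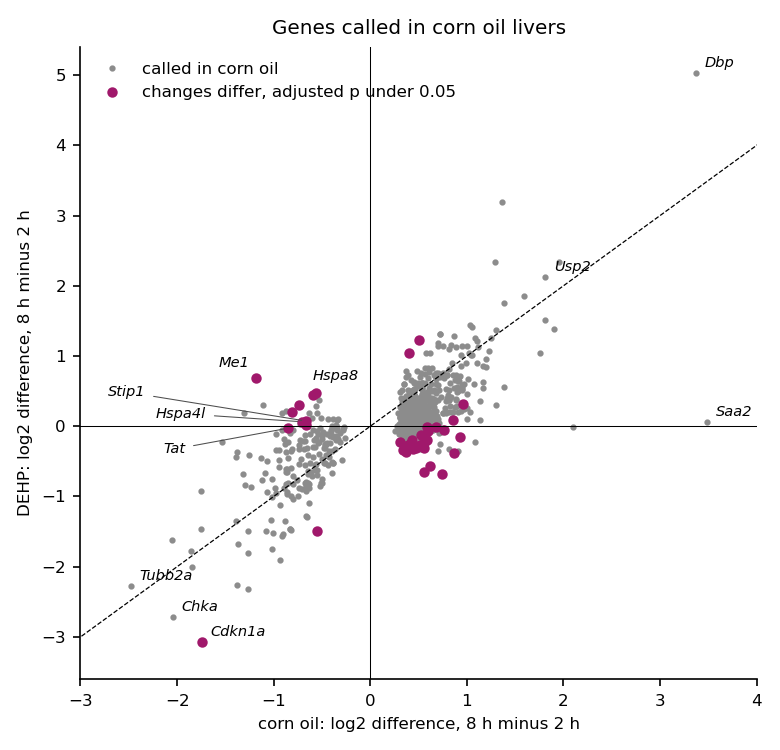
The change from 2 h to 8 h in DEHP livers against the same change in corn oil livers, on the log2 scale, for the 738 genes called in corn oil; the dashed line marks equal changes. Purple points are genes whose changes differed (adjusted p under 0.05), among them Me1, Hspa8, Stip1, Hspa4l, Tat and Cdkn1a, while Dbp, Usp2, Chka and Tubb2a moved the same way in both.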

How the data were processed

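Liver RNA of 24 mouse samples was measured on Affymetrix arrays of 45101 probe sets, and the authors deposited log2 signals made with RMA, per the submitters' processing notes, which give no version. The values run from 2.84 to 14.55, and array medians lie between 6.46 and 6.55. Groups were taken from the sample titles. Arrays have no depth, so the number of arrays (3 a group) limits the precision, and no detection calls were used.

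Probe sets were named through the platform annotation: 34958 carried 1 gene symbol, 932 several and 9211 were not listed there. The probe set with the highest mean over the 24 arrays stood for each of 18194 genes, 9012 of which had more than 1. R 4.3.3 and limma 3.58.1 fitted 1 model of 8 group means to all arrays (16 residual and 6.21 prior degrees of freedom), and Benjamini-Hochberg adjustment ran over all genes. The fit was checked on simulated data. Contrasts were corn oil at 8 h minus 2 h, the same for DEHP, and their difference. Alternatives changed 1 choice at a time, and those of the DEHP change were added after seeing the data.

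The comparison, the 30 gene lists, 10 marker lists and the motifs were chosen with earlier results of these data known. Named genes were the 15 largest called rises and 15 largest called falls with arrays that did not overlap (unnamed and predicted genes passed over), every called clock gene, up to 5 called members of each other list or its largest change where none was called, and a fixed set of clock and metabolic genes. Other genes that the text names, such as Apol7a and Nampt, were chosen after their values were seen. Replicate numbers were not taken to pair arrays, since the deviations of equal numbers correlated at 0.30, -0.08 and 0.03.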

Additional observations from a re-analysis of the deposited data

Results flagged for a closer look

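Of the genes named, 6 had a change from 2 h to 8 h that differed between DEHP and corn oil livers by limma's test of that difference (adjusted p under 0.05), each from 12 arrays, 3 a group. Many genes were named for their corn oil change, which is part of this difference, so such differences are favoured among them. Hspa8 changed by 0.45 in DEHP and by -0.59 in corn oil, a difference of 1.04 (SE 0.14, adjusted p = 0.00085). Me1 changed by 0.69 and -1.19, a difference of 1.88 (SE 0.40, adjusted p = 0.0365), and Tat by -0.03 and -0.85, a difference of 0.82 (SE 0.15, adjusted p = 0.0104). Stip1 changed by 0.07 and -0.67 (difference 0.74, adjusted p = 0.0173) and Hspa4l by 0.06 and -0.71 (difference 0.77, adjusted p = 0.041). Cdkn1a fell in both, by -3.07 in DEHP and -1.74 in corn oil, a difference of -1.33 (SE 0.30, adjusted p = 0.0475). At 2 h its means were 11.32 ± 0.26 in DEHP and 9.51 ± 0.34 in corn oil (SD, n = 3). Those of Me1 were 12.02 ± 0.56 in DEHP and 12.97 ± 0.15 in corn oil.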

How the results depend on the processing

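Of the 88 called genes that the text's rule names, none reversed under any alternative run, and 44 kept their calls in each of the 6 fits without 1 array. The 738 calls became 192 with the Actb 3' minus 5' difference as a covariate (135 higher, 57 lower), 321 from the 6 arrays alone (204 and 117), 397 from the 12 corn oil arrays (275 and 122), 275 at an adjusted p under 0.01 (191 and 84) and 316 with an added 1.5-fold threshold (193 and 123). A stricter threshold lowers the count by construction. Fits on fewer arrays have fewer degrees of freedom, but the cause of their lower counts was not tested, nor was that for the covariate. Quantile normalization gave 335 lower genes. Leaving out each array in turn gave 324 to 655 calls, 203 to 509 higher and 102 to 254 lower. The count of genes whose change differed between DEHP and corn oil, 76, became 140 with array weights, 40 with the Actb covariate, 184 without both arrays numbered 14 and 20 at an adjusted p under 0.01, and ran from 31 (without 2 h replicate 1) to 91 (without 8 h replicate 3) on leaving out 1 array. The DEHP calls, 728, became 429 at an adjusted p under 0.01 and 397 with the 1.5-fold threshold. With the replicate number as a fixed block 728 genes were called (522 higher, 206 lower), and as a random block 722 (526 and 196); the numbers did not pair the arrays, and 85 of 88 named calls held under either. List medians moved beyond the spread in 42 of 570 settings.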
